A study of Mus musculus with 48 samples.

Results

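The genes described here are 6 enzymes and carriers of fatty acid oxidation, chosen by name among the 478 genes that the authors kept from a glial expression panel. They are Crot, Slc25a17 and Hsd17b4, whose proteins work in the peroxisome, and Acadm, Acadsb and Acat1, whose proteins work in the mitochondrion. All 6 were found in each of the 3 tables of fold changes that the authors deposited.

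As background, very long and branched fatty acids are shortened in peroxisomes, and the shortened chains are handed to mitochondria as carnitine esters to be oxidised further. Mitochondria take medium, short and branched chains apart through acyl-CoA dehydrogenases and thiolases. Among the mitochondrial thiolases, the product of Acat1 serves ketone bodies and the breakdown of isoleucine. In microglia, the resident macrophages of the brain, fatty acid oxidation is known as an alternative to glucose as a fuel and as part of the handling of lipid taken up from myelin and dying cells.

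The mice were BALB/cByJ pups (Balbc/Byj in the labels) of both sexes, 17 days old, and RNA was measured in microglia purified from the hippocampus by Percoll gradient and flow cytometry. The 48 animals fell into the groups UPS, LB and CTL, with 16 animals in each and 8 of each sex per group. As background, LB denotes rearing with limited bedding and nesting material and UPS denotes unpredictable postnatal stress, while CTL is the control rearing. Per the labels' protocols, the 8 animals of a group and sex came from several litters, so some were littermates and the p-values treat them as unrelated. Transcripts were counted with barcoded nCounter probes directly in cell lysate, in 4 batches of 12 animals, each batch with 2 animals of every group and sex.

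The values are the authors' log2 ratios between 2 groups, with both sexes pooled, and values per animal were not used here. The headers do not say which group is the numerator, so signs are given as deposited. If each ratio is UPS over CTL, UPS over LB and LB over CTL, a negative sign means less transcript in the group named first, while with the other numerators all signs change at once. A gene passed where its p, adjusted by the Benjamini-Hochberg method over all 478 genes of a table, was below 0.05. Standard errors (SE) and 95% intervals were recovered from each ratio and its p. Levels per library being unknown, the labelled cell type could not be checked against absolute levels. The 13 microglial markers looked up (among them P2ry12, Tmem119, Cx3cr1 and Csf1r) were all in the tables, beside 12 markers of other cells. The authors kept genes above 20 counts, so an absent marker may have had low counts or not been on the panel.

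Crot and Slc25a17, both of the peroxisome, differed between UPS and LB by about the same amount and with the same sign, and Crot also differed between UPS and CTL. Hsd17b4, the peroxisomal member that catalyses oxidation itself, did not pass in any table, and neither did the 3 mitochondrial members. No member passed between LB and CTL. The differences were small: the linear ratios of the called values lay between 0.909 and 0.926 in the authors' deposited tables.

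**Figure D1:**
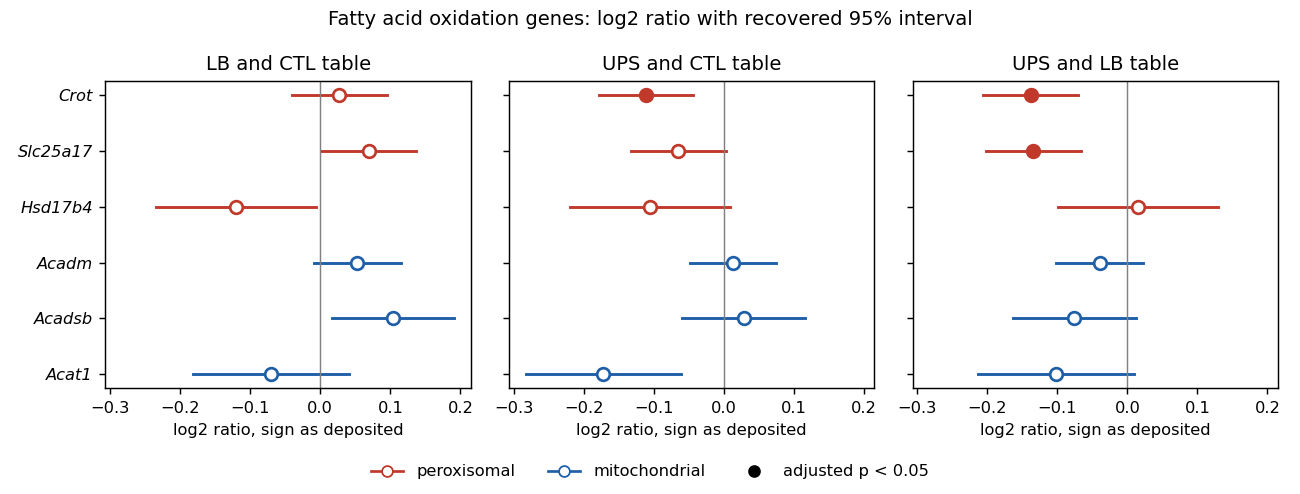
Log2 ratio (x axis, sign as deposited) of the 6 members in the LB and CTL, UPS and CTL, and UPS and LB tables, with recovered 95% intervals as bars; red marks peroxisomal and blue mitochondrial members, and filled circles passed. Filled circles are Crot in both UPS tables and Slc25a17 in the UPS and LB table, all left of 0.

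Crot encodes carnitine O-octanoyltransferase, the peroxisomal enzyme that puts medium-length acyl chains onto carnitine for export. Its log2 ratio in the authors' deposited table for UPS and LB was -0.14, a linear ratio of 0.909 (recovered 95% interval 0.867 to 0.952, p = 0.000171, adjusted p = 0.00629). That p ranked 13 among the 478 genes, and 84.9% of the genes had a smaller ratio in size. For UPS and CTL the authors' deposited table gave Crot a log2 ratio of -0.11, a linear ratio of 0.926 (interval 0.884 to 0.970, p = 0.00192, adjusted p = 0.0461). For LB and CTL the authors' deposited ratio was 0.027 on the log2 scale (interval -0.040 to 0.095, adjusted p = 0.790). The call between UPS and CTL lay just under the threshold, and it was lost when the authors' p-values of the 3 tables were adjusted together (adjusted p = 0.0540), when ratios were centred on the median gene (adjusted p = 0.0525), and with the stricter Benjamini-Yekutieli (adjusted p = 0.311) and Holm (adjusted p = 0.883) adjustments. Between UPS and LB the call on Crot from the authors' p-values was lost with Holm (adjusted p = 0.0797) alone among the alternatives tried.

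Slc25a17 encodes PMP34, a carrier in the peroxisomal membrane that, from work on the human protein, moves cofactors such as coenzyme A, FAD and NAD across it. In the authors' deposited table for UPS and LB its log2 ratio was -0.13, a linear ratio of 0.911 (interval 0.869 to 0.955, p = 0.000255, adjusted p = 0.00813), with p at rank 15 of 478. This call was lost when the authors' p-values were adjusted by the stricter Benjamini-Yekutieli (adjusted p = 0.0548) or Holm (adjusted p = 0.118) method. Against CTL the log2 ratios of Slc25a17 in the authors' deposited tables were smaller and of opposite sign, -0.065 for UPS (interval -0.13 to 0.0027, adjusted p = 0.322) and 0.069 for LB (interval 0.0013 to 0.14, adjusted p = 0.413). By these estimates the difference between UPS and LB in Slc25a17 split nearly evenly around CTL, whereas for Crot most of it lay between UPS and CTL. The intervals of both genes against CTL overlap, and this contrast between the genes was not tested.

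Hsd17b4 encodes D-bifunctional protein, which hydrates and then dehydrogenates acyl chains in the peroxisomal oxidation spiral. In the authors' deposited tables its log2 ratios were -0.12 for LB and CTL (interval -0.23 to -0.0057, p = 0.0398, adjusted p = 0.413) and -0.11 for UPS and CTL (interval -0.22 to 0.0093, p = 0.0708, adjusted p = 0.345). Both stress groups stood on the same side of CTL, and neither ratio passed. Between UPS and LB the authors' deposited log2 ratio of Hsd17b4 was 0.015, with an interval from -0.099 to 0.13 (adjusted p = 0.906). A difference beyond 1.09-fold in either direction lay outside that interval, and the recovered SE of Hsd17b4, 0.057, was larger than those of Crot (0.033) and Slc25a17 (0.034).

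Acadm encodes the medium-chain acyl-CoA dehydrogenase, the enzyme of the opening oxidation step for medium chains in mitochondria. It was the most precisely measured member, with a recovered SE of 0.031, and had the narrowest span between its 3 groups among the 6. The authors' deposited log2 ratios of Acadm were 0.053 for LB and CTL (adjusted p = 0.475), 0.013 for UPS and CTL (adjusted p = 0.868) and -0.040 for UPS and LB (adjusted p = 0.516). The recovered intervals of these linear ratios ran from 0.994 to 1.08, from 0.967 to 1.05 and from 0.932 to 1.02.

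Acadsb encodes the dehydrogenase of short and branched acyl chains, which acts in isoleucine breakdown. In the authors' deposited table its log2 ratio was 0.10 for LB and CTL, a linear ratio of 1.07 (interval 1.01 to 1.14, p = 0.0210, adjusted p = 0.332). The authors' deposited log2 ratios of Acadsb were 0.028 for UPS and CTL (adjusted p = 0.773) and -0.076 for UPS and LB (adjusted p = 0.338). With the smallest p of the 6 between LB and CTL, Acadsb ranked 30 of 478 there and did not pass.

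Acat1 encodes the mitochondrial acetoacetyl-CoA thiolase, which works in ketone body and isoleucine metabolism. It had the largest ratio of the 6, -0.17 on the log2 scale for UPS and CTL in the authors' deposited table, a linear ratio of 0.888 (interval 0.822 to 0.959, p = 0.00319, adjusted p = 0.0597), which did not pass. Its size exceeded that of Crot in the same table, but its recovered SE of 0.055 was larger too. For LB and CTL the authors' deposited log2 ratio of Acat1 was -0.070 (adjusted p = 0.621), and for UPS and LB it was -0.10 (adjusted p = 0.322).

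The order of the 3 groups can be read whichever group is the numerator, since turning all signs leaves the middle group in the middle. UPS and LB stood at the ends and CTL between them for Crot and Slc25a17. UPS and CTL were at the ends for Acat1, with LB between. For Hsd17b4, Acadm and Acadsb the ends were LB and CTL, with UPS between. Over all 478 genes the middle group was UPS in 32.8%, LB in 30.1% and CTL in 37.0%. The widest gap between groups was 4.13 recovered SE of a ratio for Crot, 4.00 for Slc25a17, 3.13 for Acat1, 2.41 for Acadsb, 2.12 for Hsd17b4 and 1.74 for Acadm. Not every pair of groups in these orders passed the threshold. LB and CTL did not pass for any member, and UPS and CTL passed for Crot alone. UPS and LB passed for Crot and Slc25a17 alone.

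**Figure D2:**
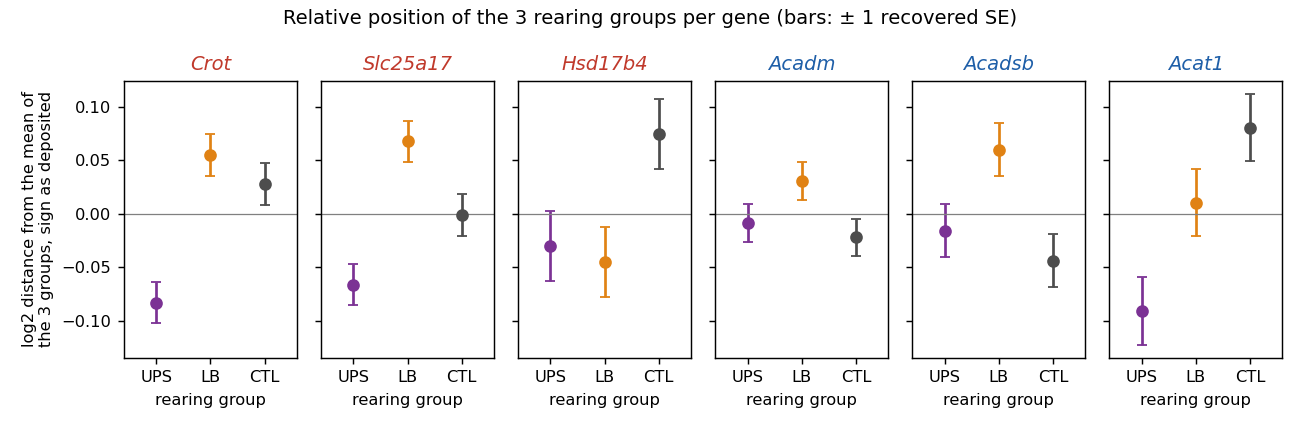
Distance of the UPS, LB and CTL groups from the mean of the 3 groups on the log2 scale (y axis, sign as deposited), for each member. Bars are 1 recovered SE of this distance, which is smaller than the SE of a ratio (0.019 against 0.033 for Crot). For Crot and Slc25a17 the UPS group stands at one end (-0.083 and -0.066) and LB at the other (0.055 and 0.068); for Hsd17b4 it is CTL that stands apart (0.075).

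The 3 groups were also set against each other in a single F test for each gene, built from the ratios against CTL and the recovered SE and chosen after the values had been seen. Crot (F = 9.58, adjusted p = 0.0122) and Slc25a17 (F = 7.99, adjusted p = 0.0220) passed in this test (n = 16 a group), among 33 of the 478 genes (6.9%). With Benjamini-Yekutieli or Holm adjustment 0 members passed in it. Acat1 had F = 4.95 with an adjusted p of 0.116. Adjusted p-values of the other members were 0.250 for Acadsb, 0.307 for Hsd17b4 and 0.468 for Acadm.

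Counts of members are read against the share of all genes. Between UPS and LB, 2 of the 6 members passed, both with a negative ratio, where 30 of 478 genes (6.28%) passed and 8 of them (1.67%) had a negative ratio. For UPS and CTL 1 of 6 passed, with a negative ratio, where 23 genes (4.81%) passed and 6 of them (1.26%) were negative. After centring on the median gene, 20 genes passed in that comparison, 3 of them negative. No gene passed between LB and CTL (0%), and 3 members (Acadsb, Hsd17b4 and Slc25a17) had an unadjusted p below 0.05 there, beside 11.7% of all genes. At that unadjusted level there were 2 members for UPS and CTL (16.3% of all genes) and 2 for UPS and LB (18.8%). Because the 6 genes were named with results of these data known, these counts describe them and no test of the set was made.

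**Figure D3:**
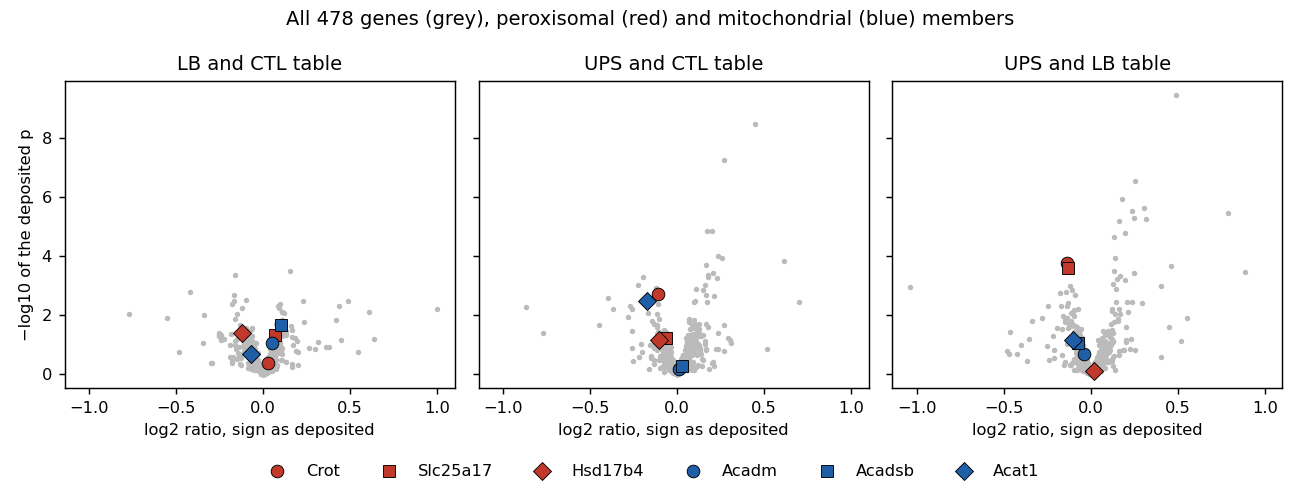
Log2 ratio (x axis, sign as deposited) against −log10 of the deposited p (y axis) for 478 genes in each table, with the peroxisomal members in red and the mitochondrial members in blue. In the UPS and LB panel Crot and Slc25a17 lie together left of 0 at ranks 13 and 15 by p, while Hsd17b4 lies near 0.

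Peroxisomal and mitochondrial members did not form groups of distinct values. Between UPS and LB the authors' deposited log2 ratios of the peroxisomal genes ran from -0.14 to 0.015 (median -0.13) and those of the mitochondrial genes from -0.10 to -0.040 (median -0.076). Between UPS and CTL the authors' deposited ratios of peroxisomal genes ran from -0.11 to -0.065 (median -0.11), inside the span of the mitochondrial genes, -0.17 to 0.028 (median 0.013). In the LB and CTL table the authors' deposited log2 medians were 0.027 and 0.053 in the same order. The median of all 478 genes was -0.010, -0.0025 and 0.0035 in the 3 tables in that order. In 5 of 6 members the ratio between UPS and LB was negative, beside 56.1% of all genes, with Hsd17b4 as the exception. The comparisons share groups, so these values are not independent of one another. The ratios are relative to the authors' normalization, and a lower number of transcripts per cell cannot be told apart from fewer cells of a kind in the lysate.

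For Crot and Slc25a17, the members that passed, and for Acadm and Acadsb, mitochondrial members that did not, RefSeq promoter windows of the GRCm38.p6 mouse assembly are shown, running from 250 bases before to 50 bases after the annotated start. Capitals mark matches on either strand to 4 motifs chosen with the results known: the GC box GGGCGG, the CCAAT box CCAAT, the ETS motif CCGGAAG and the nuclear receptor core motif AGGTCA. The windows are chr5:8997097-8997396 (minus strand) for Crot, chr15:81360716-81361015 (minus strand) for Slc25a17, chr3:153944594-153944893 (minus strand) for Acadm and chr7:131410351-131410650 (plus strand) for Acadsb, each 5′ to 3′ on the gene's strand.
Crot: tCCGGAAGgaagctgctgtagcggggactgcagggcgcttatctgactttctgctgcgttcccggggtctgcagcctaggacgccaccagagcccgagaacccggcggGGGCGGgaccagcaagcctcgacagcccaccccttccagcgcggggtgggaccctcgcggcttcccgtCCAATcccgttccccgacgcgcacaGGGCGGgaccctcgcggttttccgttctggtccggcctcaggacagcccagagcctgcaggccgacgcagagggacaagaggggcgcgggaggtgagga
Slc25a17: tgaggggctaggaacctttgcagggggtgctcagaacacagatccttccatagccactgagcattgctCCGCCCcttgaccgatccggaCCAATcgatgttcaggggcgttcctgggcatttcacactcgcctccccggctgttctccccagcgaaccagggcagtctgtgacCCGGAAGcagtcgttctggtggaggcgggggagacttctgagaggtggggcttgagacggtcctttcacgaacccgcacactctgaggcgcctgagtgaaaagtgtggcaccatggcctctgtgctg
Acadm: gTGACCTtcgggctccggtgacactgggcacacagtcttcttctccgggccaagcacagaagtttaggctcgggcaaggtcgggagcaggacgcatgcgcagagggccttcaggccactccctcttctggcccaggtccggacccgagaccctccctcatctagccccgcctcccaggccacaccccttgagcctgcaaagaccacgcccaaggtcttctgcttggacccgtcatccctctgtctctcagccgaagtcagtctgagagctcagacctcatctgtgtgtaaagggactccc
Acadsb: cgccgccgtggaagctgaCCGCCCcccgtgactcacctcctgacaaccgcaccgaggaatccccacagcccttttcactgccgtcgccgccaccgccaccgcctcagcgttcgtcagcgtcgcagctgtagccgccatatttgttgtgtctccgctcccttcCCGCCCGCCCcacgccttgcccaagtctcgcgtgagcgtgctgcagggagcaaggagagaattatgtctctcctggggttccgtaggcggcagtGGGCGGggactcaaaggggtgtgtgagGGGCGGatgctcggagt

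The windows of Crot and Slc25a17 both held a GC box, a CCAAT box and an ETS motif. Crot had GC boxes from bases 109 and 202 of its window, a CCAAT box from base 177 and an ETS motif from base 2, and Slc25a17 had them from bases 69, 90 and 174. Among 32851 promoter windows of the table, 35.7% held the GC box, 37.4% the CCAAT box, 8.86% the ETS motif and 1.70% all 3. The bases G and C made up 69.7% of the Crot window and 60.7% of the Slc25a17 window. They made up 62.3% for Acadm and 66% for Acadsb, beside a median of 52.7% over all windows. The share with all 3 motifs was not taken among windows of like G and C content. The Acadsb window held 5 GC boxes, a pair of which overlap, and the Acadm window held none of these 3 motifs. Acadm had the only nuclear receptor core motif, from base 2, which 16.3% of all windows held. The direct repeat AGGTCANAGGTCA, the form of element bound by PPAR receptors that are known to control fatty acid oxidation genes, was in none of the 4 windows and in 0.0396% of all. A match describes letters in a window and is not evidence of binding, and Hsd17b4 and Acat1 are named without a sequence.

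Other genes of these pathways among the 478 were few, and none of the 17 measured passed in any table. Over all genes 0% (LB and CTL), 4.81% (UPS and CTL) and 6.28% (UPS and LB) passed, so a count of 0 among 17 is near that share. In the peroxisome, Scp2, a carrier protein and thiolase for branched chains and sterols, and Phyh, the enzyme that starts phytanic acid oxidation, had authors' deposited log2 ratios of 0.030 and 0.015 between UPS and LB, opposite in sign to Crot and Slc25a17. In the authors' deposited tables their log2 ratios for UPS and CTL were -0.024 and -0.039, and for LB and CTL -0.054 and -0.054. These 2 genes followed the sign pattern of Hsd17b4, with both stress groups on the same side of CTL, but the smallest of their adjusted p-values was 0.475.

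Of 4 further genes listed here under mitochondrial oxidation, Acsl3 and Acsl4, ligases that activate long chains with coenzyme A, had the largest ratios. In the authors' deposited table for UPS and LB they were at -0.20 (adjusted p = 0.177) and -0.15 (adjusted p = 0.134), and for UPS and CTL at -0.13 (adjusted p = 0.441) and -0.17 (adjusted p = 0.112). Hadh, the dehydrogenase for short hydroxyacyl chains, was at -0.083 between UPS and LB in the authors' deposited table (adjusted p = 0.338), and Acot13, an acyl-CoA thioesterase, was at 0.024 (adjusted p = 0.822). Acsl3 and Acsl4 are also known outside mitochondria, on lipid droplets, the endoplasmic reticulum and peroxisomes.

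The 5 genes of branched-chain amino acid, propionate and ketone body metabolism beside the members had negative ratios between UPS and LB, and none passed. Of all genes 56.1% were negative there. Their authors' deposited log2 ratios ran from -0.088 for Mmut, the methylmalonyl-CoA mutase, through Acat2, the cytosolic thiolase related to Acat1 (-0.082), Dld, the dehydrogenase subunit shared by the oxo-acid complexes (-0.045), and Pccb, a propionyl-CoA carboxylase subunit (-0.032), to -0.0045 for Pcca, the partner subunit of Pccb. The smallest adjusted p among the 5 in that table was 0.457. Signs were mixed in the other tables, with 4 of the 5 positive for LB and CTL and 2 positive for UPS and CTL. Acat2 and Acat1 had opposite signs between LB and CTL, 0.11 and -0.070 in the authors' deposited table.

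The regulators measured were 3 subunits of AMP-activated kinase, an energy sensor that promotes fatty acid oxidation. Prkab1 and Prkab2, alternative beta subunits, had opposite signs between LB and CTL, 0.12 (adjusted p = 0.209) and -0.34 (adjusted p = 0.222) in the authors' deposited table, and the gamma subunit Prkag1 was at 0.044 (adjusted p = 0.650). Pdhb and Dlat, subunits of pyruvate dehydrogenase, which feeds acetyl-CoA from glucose into the same cycle, were at -0.099 (adjusted p = 0.100) and -0.16 (adjusted p = 0.105) between UPS and LB in the authors' deposited table, and Pdha1 of the same complex was at 0.090 (adjusted p = 0.460).

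**Figure D4:**
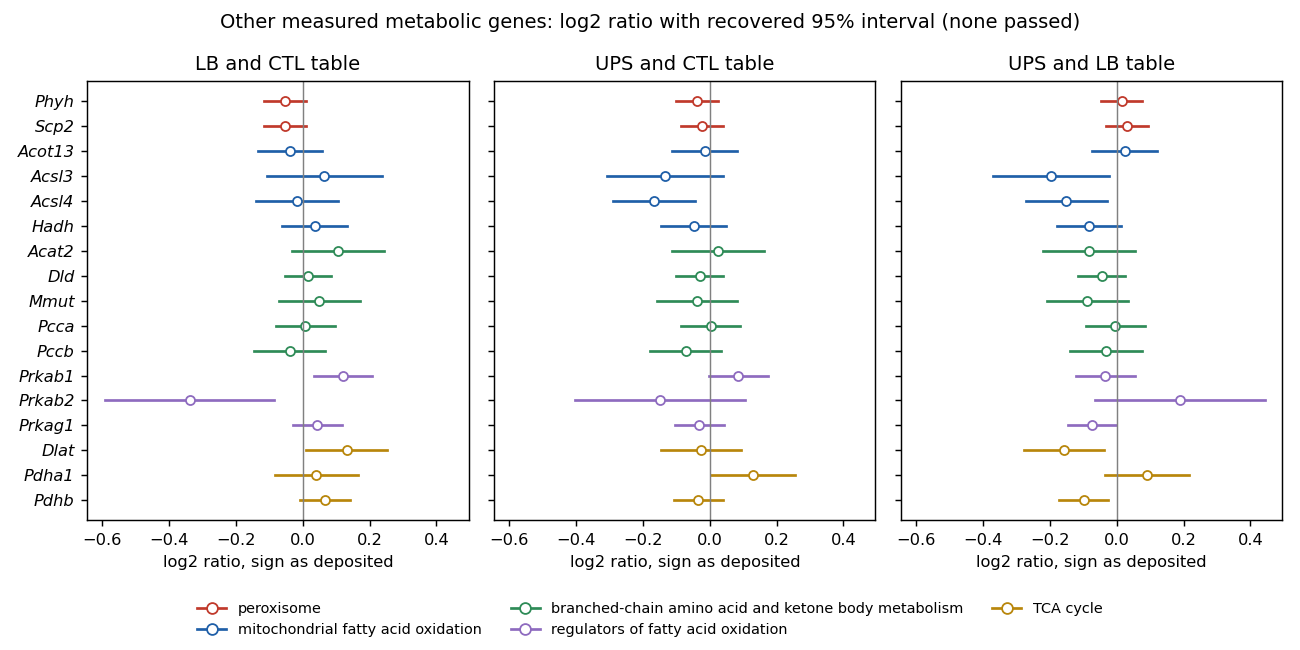
Log2 ratio (x axis, sign as deposited) with recovered 95% interval for the 17 other measured genes of peroxisomal and mitochondrial fatty acid oxidation, branched-chain and ketone body metabolism, AMP-activated kinase and pyruvate dehydrogenase, coloured by list. None passed in any table. Between UPS and LB 12 of the 17 lie left of 0, beside 56.1% of all genes.

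Elsewhere in the mitochondrion, 1 of 4 protein import genes passed, the import receptor gene Tomm70a, with log2 ratios in the authors' deposited tables of -0.12 for UPS and CTL (adjusted p = 0.0361) and -0.12 for UPS and LB (adjusted p = 0.0205). Of 5 genes of the respiratory chain and ATP synthase, Atp5g3, an ATP synthase subunit, passed for UPS and LB (-0.14 in the authors' deposited table, adjusted p = 0.0277). Over all genes 4.81% passed for UPS and CTL and 6.28% for UPS and LB. The median log2 ratio of the 4 import genes was 0.021 for UPS and CTL and -0.033 for UPS and LB. For the 5 genes of the respiratory chain and ATP synthase the medians were -0.021 and -0.024 in the same order.

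The 5 genes whose values lay closest to those of Crot were found from the ratios against CTL, each divided by its recovered SE, as a straight-line distance over these 2 values. They were Il1b (distance 0.455), Kcnk13 (0.677), Ranbp9 (0.759), Tomm70a (0.774) and Il21r (0.877). Likeness here is in units of error and not in size: Il1b, an inflammatory cytokine gene, had an authors' deposited log2 ratio of -1.04 between UPS and LB, Kcnk13, a microglial potassium channel gene, -0.11, Ranbp9, a scaffold protein gene, -0.13, and Il21r, a cytokine receptor gene, -0.17. Of these Il1b, Kcnk13 and Tomm70a passed between UPS and LB, where 6.28% of all genes passed. The UPS and LB ratio is the difference of the 2 ratios used to choose these genes. Their likeness to Crot in that comparison therefore follows from the choice. Slc25a17 was 27th in this order with a distance of 1.86, Acat1 40th, Hsd17b4 186th, Acadm 277th and Acadsb 323rd.

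Of 12 markers of neurons, astrocytes, the oligodendrocyte lineage, vessels, border macrophages and other leukocytes, Slc1a3 and Stab1 passed in both UPS tables with positive ratios, beside the 4.81% (UPS and CTL) and 6.28% (UPS and LB) of all genes that passed. Between UPS and LB the authors' deposited log2 ratios of the 12 ran from -0.47 to 0.45 with a median of 0.087, 10 of them positive where 210 of all 478 genes were, against a median of -0.089 for the 6 members. Between UPS and CTL the median of the 12 was 0.038, and between LB and CTL it was -0.049. Of the 13 microglial markers, 1 passed between UPS and LB, Tmem119, at 0.46 on the log2 scale in the authors' deposited table (adjusted p = 0.00761), and none passed in the other tables. The microglial markers had a median log2 ratio of -0.012 between UPS and LB, 5 of them positive, and of -0.0024 for UPS and CTL and -0.0087 for LB and CTL. The part of either set of markers in the ratios of Crot and Slc25a17 was not tested.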

How the data were processed

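Transcripts of hippocampal microglia were counted on the nCounter mouse glial panel, and the data used were 3 tables of the authors' own comparisons with 478 genes each. Each gene has, per the file headers, its log2 fold change, the same as a linear ratio, its p-value and a Benjamini-Hochberg adjusted one. The series text says that the authors kept genes above 20 counts and ran nSolver's advanced analysis on every pair of groups, taking batch as a covariate; no source used here gives the normalization or software version. Counts per library, and so depth, are unknown, and replicates could not be inspected.

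No model was refitted. Benjamini-Hochberg adjustment of the deposited p-values was run over each table (Python 3.11.15, scipy 1.17.1, pandas 2.3.3), and a gene passed below 0.05. The calls matched the authors' adjusted column for all 478 genes of each table. Standard errors were the size of a log2 ratio over the t quantile of its p with 42 residual degrees of freedom (1 model of 48 libraries with rearing and batch), as the median over the tables. They differed between tables of a member by at most 0.413%. The UPS and LB log2 ratio equalled the difference of the ratios against CTL to within 0.003. The F test, added after the values were seen, divides the summed squared distances of the 3 groups from their mean by the squared standard error. The recovery of standard errors and F was tested on data simulated under this same model. That test covers the arithmetic only. It cannot show whether the model is the one the authors ran. Of 478 symbols, 476 matched the GRCm38.p6 gene table, and promoter windows of 4 of 6 members were used.

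Members, lists and motifs were chosen with earlier results of these data known. Named genes were the 6 members, measured list genes (from the protein import and respiratory chain lists only those that passed) and the 5 genes closest to Crot. Alternatives were other p adjustments, centring and other degrees of freedom. P-values take animals as independent.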

Additional observations from a re-analysis of the deposited data

How the results depend on the processing

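Over the 6 alternatives for each of the 18 member values, 101 of 108 values stayed on their side of the threshold and 7 were lost. Much of this was fixed in advance. Only centring changes a ratio, so a sign could turn there alone, and none did. The authors' adjusted column holds the same adjustment of the same p-values, and Benjamini-Yekutieli and Holm cannot add a call. The other degrees of freedom were used both to recover an SE from p and to turn it back into p. The deposited p-values therefore came back nearly unchanged, and that alternative cannot show whether the calls depend on the degrees of freedom. All 7 losses fell on the calls of Crot and Slc25a17. The call on Crot between UPS and CTL (log2 ratio -0.11) was lost when the authors' p-values of the 3 tables were adjusted together (adjusted p = 0.0540), after centring on the median gene (0.0525), with Benjamini-Yekutieli (0.311) and with Holm (0.883), so that 0 members passed in each of these. Between UPS and LB, 1 member passed with Benjamini-Yekutieli, Crot, with Slc25a17 at an adjusted p of 0.0548, and 0 passed with Holm (0.0797 for Crot and 0.118 for Slc25a17). In the F test 0 members passed with either of these stricter adjustments, which were tried after the data were seen. Over all genes, 3 passed between LB and CTL with the tables adjusted together, none of them a member. Between UPS and CTL 4 genes passed with Benjamini-Yekutieli and 5 with Holm, and between UPS and LB 13 and 11.

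The peroxisomal minus mitochondrial median of the log2 ratios was -0.026 for LB and CTL, -0.12 for UPS and CTL and -0.059 for UPS and LB. With means it was -0.050 for UPS and CTL and -0.013 for UPS and LB. With all 5 peroxisomal and 7 mitochondrial oxidation genes listed and measured it was -0.089, -0.017 and 0.098 in the 3 tables in that order. Its sign between UPS and LB therefore depends on which genes are counted. Acsl3 and Acsl4, also known outside mitochondria, are among the 7. No paired analysis was possible because the tables carry no values per library, and for the same reason no animal was left out, no filter on low counts was varied and the sexes were not separated.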
